A study of Drosophila melanogaster with 8 samples.

Results

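The genes described here are the core of the Drosophila JNK pathway: the TNF ligand egr, its receptors grnd and wgn, the kinases msn, hep and bsk, the phosphatase puc, the AP-1 factors Jra and kay, and the ETS factor Ets21C. They were chosen by name, as the rows of the deposited table whose FlyBase gene identifier carries one of these symbols, and all 10 were found among 17869 gene rows. Total RNA had been sequenced from wing imaginal discs of Drosophila melanogaster, the larval epithelia that form the adult wing and thorax. There were 4 control libraries (nub-Gal4 with UAS-mRFP, a red fluorescent protein) and 4 libraries labelled ecd-RNAi, which carried the same driver and reporter plus UAS-ecd-RNAi. Larvae of both groups were at the L3 stage, kept at 25 °C and dissected on day 7 after egg laying, with 150 discs pooled per library. The driver nub-Gal4 is active in the wing pouch and hinge, so the rest of each disc was outside the RNAi domain. The gene ecd encodes a protein needed for pre-mRNA splicing and for ecdysone synthesis, and the title of the series concerns the response of the tissue to spliceosome dysfunction.

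JNK is a stress kinase conserved from flies to mammals. In discs, the TNF ligand Eiger binds its receptors and starts a chain of kinases that ends with phosphorylation of the JNK Basket, which in turn activates the AP-1 dimer of Jun (Jra) and Fos (kay). The pathway is known for its part in wound closure, regeneration, tumour growth and cell death, and puc, a target of AP-1, encodes the phosphatase that switches Basket off again. These data measure RNA and not phosphorylation, so the level of a kinase transcript does not report the activity of the kinase.

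Each value below is a normalized count, the authors' estimated read count of a gene divided by a scaling factor for its library. These counts summed to between 35110994 and 37879705 per control library and between 27403922 and 32623572 per ecd-RNAi-labelled library, and over protein-coding genes to 15832388 to 15931037 and 15215812 to 15961051. The transcript of ecd was higher, not lower, where the label names RNAi: it was 998 to 1052 in control and 1208 to 1462 in ecd-RNAi-labelled libraries. This goes against the label, and directions below compare ecd-RNAi-labelled libraries with control. Reads from the RNAi hairpin and from the gene itself cannot be told apart in values per gene. The disc epithelium markers nub, vg, sd, rn, ap, wg, Dll and shg were all detected, and their summed level was 59141 to 62134 in control and 46106 to 49379 in ecd-RNAi-labelled libraries. In tissue RNA, fewer cells of a type and less RNA per cell cannot be told apart.

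Of the 10 genes, 6 were called higher (egr, grnd, puc, Jra, kay and Ets21C), 2 were called lower (wgn and bsk) and 2 were not called (msn and hep). Calls are those of limma, a linear model fitted to log2(normalized count + 1) over the 9380 gene rows whose mean reached 10, with p-values adjusted by Benjamini-Hochberg (BH) and a threshold of 0.05. In the same fit 62.5% of all genes tested were called, 30.8% higher and 31.7% lower, so a call by itself is common in these data. All 10 genes passed the filter on low values in both groups. Here and below, "called" refers to this test. The median log2 fold change was 0.34 over the 10 genes and 0.00 over all genes tested. By role, the ligand and receptors had 2 higher and 1 lower, the kinases had 0 higher and 1 lower, and the nuclear factors together with puc had 4 higher and 0 lower. The groups did not overlap in 8 of the 10 genes, against 57.2% of all genes tested.

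**Figure D1:**
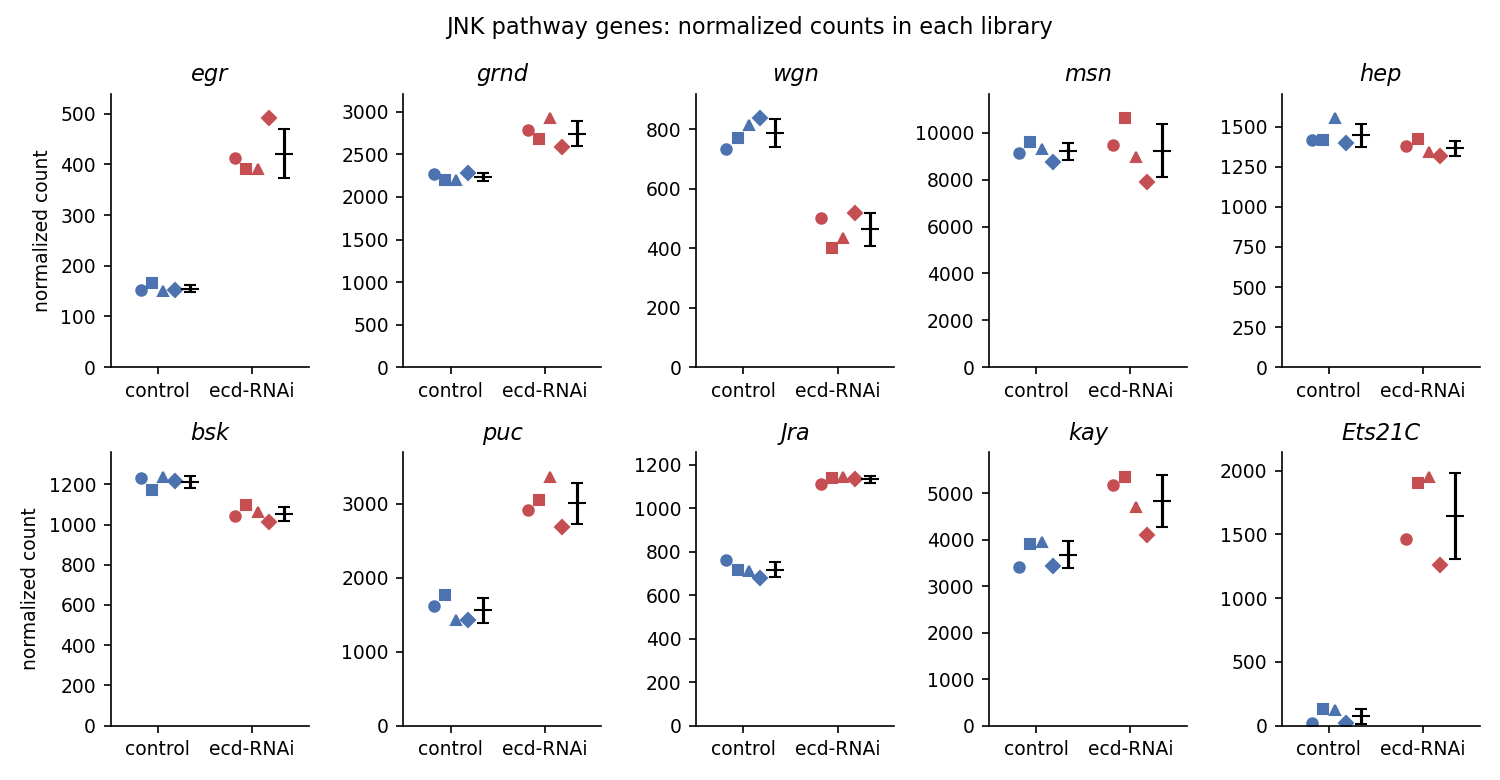
Normalized counts (vertical axes, linear, from 0) of the 10 genes in each of the 8 libraries. Blue points are control and red points are ecd-RNAi-labelled libraries, with the circle, square, triangle and diamond for replicates 1 to 4. Black bars give the mean and SD of 4 libraries. The groups overlap for msn and hep and are apart for the other genes.

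Among the upstream genes, the ligand rose. The gene egr (FBgn0033483; BDGP6 chromosome 2R, 10078366 to 10084210, plus strand) encodes Eiger, the TNF of flies. It was 152, 166, 149.9 and 152 in control replicates 1 to 4 and 413, 390.2, 390.5 and 491 in the 4 ecd-RNAi-labelled replicates. Every ecd-RNAi-labelled library was above every control, and replicate 4 was the highest of them. The mean went from 155 ± 7.16 to 421 ± 47.6 (SD, n = 4), 2.72-fold higher (log2 fold change 1.43, SE 0.09, limma, BH-adjusted p = 3.24e-07). Of the 9380 genes tested, 569 had a log2 fold change at least as high as that of egr.

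Of the receptors, grnd and wgn moved in opposite directions. The gene grnd (FBgn0032682; chromosome 2L, 18485417 to 18488021, plus strand) encodes Grindelwald, which sits at the apical side of disc cells. It was 2273, 2197, 2199.8 and 2277 in control replicates and 2787, 2680.3, 2924 and 2584 in ecd-RNAi-labelled replicates. The groups did not overlap, and the rise was small, from 2237 ± 44.3 to 2744 ± 146 (1.23-fold, log2 fold change 0.29, SE 0.04, limma, BH-adjusted p = 0.000149). About 51.4% of genes tested had a change at least as large in either direction. The exons of grnd overlap those of kon on the opposite strand. The values of kon went the other way, from 1826 ± 79.95 to 936 ± 132.

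The gene wgn (FBgn0030941; chromosome X, 18624042 to 18634908, minus strand) encodes Wengen, the other TNF receptor of flies. Control replicates 1 to 4 held 733, 769.7, 814 and 837, and ecd-RNAi-labelled replicates 1 to 4 held 503, 399.9, 435 and 518. No ecd-RNAi-labelled library reached the lowest control. The mean went from 788 ± 46.4 to 464 ± 55.9, 1.70-fold lower (log2 fold change -0.77, SE 0.09, limma, BH-adjusted p = 2.46e-05). A log2 fold change at least as low was found in 724 of the 9380 genes tested.

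The receptors were also compared within libraries, where the scaling of libraries has no part. With grnd higher and wgn lower in every ecd-RNAi-labelled library, their ratio had to separate. Its p-value therefore adds no support beyond those values. The ratio of grnd to wgn was 2.70 to 3.10 in control libraries and 4.98 to 6.70 in ecd-RNAi-labelled libraries, a difference of 1.06 in the mean log2 ratio (exact permutation test, two-sided, p = 0.0286, the smallest that 4 against 4 libraries allow; adjusted p = 0.0357 over 5 ratios). The ratio of egr to grnd, ligand over receptor, was 0.0673 to 0.0758 in control and 0.134 to 0.190 in ecd-RNAi-labelled libraries, a difference of 1.14 in the mean log2 ratio (exact permutation p = 0.0286, adjusted p = 0.0357). Since egr rose by far more than grnd in every ecd-RNAi-labelled library, the ratio of egr to grnd had to separate as well. Its p-value likewise adds no support beyond those values. Both ratios were higher in all 4 ecd-RNAi-labelled libraries than in any control. These ratios are of normalized counts and do not correct for the length of the transcripts.

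**Figure D2:**
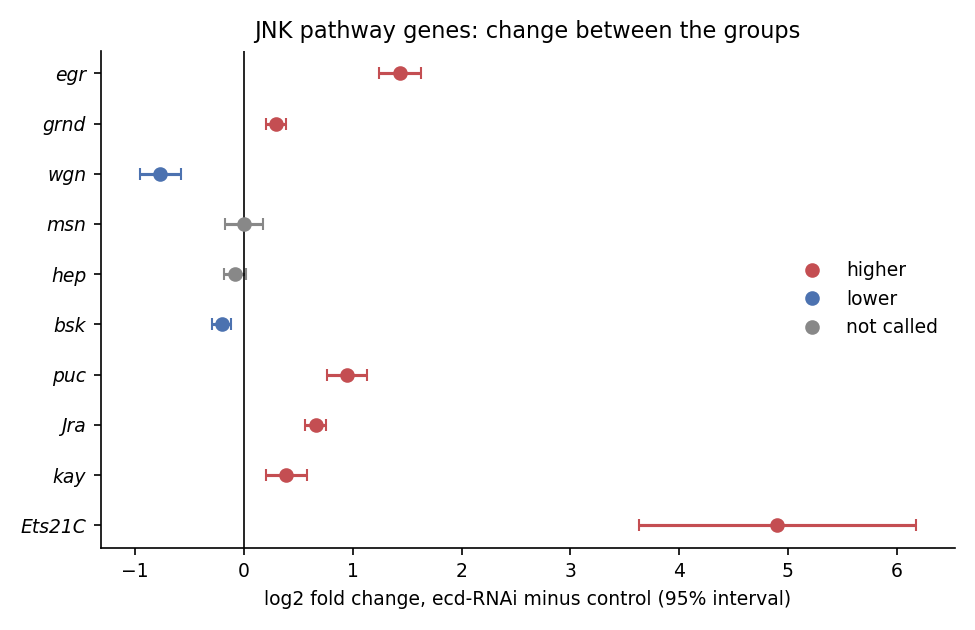
Log2 fold changes of the 10 genes (horizontal axis, ecd-RNAi-labelled libraries minus control; points, with bars for the 95% interval from limma). Red genes were called higher, blue lower and grey not called. Ets21C, at 4.91, lies apart from the other 9, which range from -0.77 for wgn to 1.43 for egr.

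The 3 kinase genes had the smallest log2 fold changes of the 10. The gene msn (FBgn0010909; chromosome 3L, 2554847 to 2586540, minus strand) encodes Misshapen, a kinase of the Ste20 family at the top of the cascade. It was 9142, 9621, 9298 and 8753 in control replicates and 9484, 10616, 8966 and 7882 in ecd-RNAi-labelled replicates. The highest and the lowest of the 8 values were both in ecd-RNAi-labelled libraries, and the groups overlapped. Means were 9204 ± 361 and 9237 ± 1136, and the log2 fold change of 0.00 had a 95% interval from -0.18 to 0.17 (limma, BH-adjusted p = 0.984). After quantile normalization msn was called higher (log2 fold change 0.16, limma, BH-adjusted p = 0.0239).

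The gene hep (FBgn0010303; chromosome X, 13079205 to 13090434, minus strand) encodes Hemipterous, the MAP kinase kinase that phosphorylates Basket. Control replicates 1 to 4 held 1416, 1419, 1553 and 1399.9, and ecd-RNAi-labelled replicates 1 to 4 held 1381, 1426, 1346 and 1316. The groups overlapped through ecd-RNAi replicate 2. The means were 1447 ± 71.1 and 1367 ± 47.3, with a log2 fold change of -0.08 and a 95% interval from -0.18 to 0.02 (limma, BH-adjusted p = 0.141). It was called lower once libraries were recentred on their median (log2 fold change -0.17, limma, BH-adjusted p = 0.00848).

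The gene bsk (FBgn0000229; chromosome 2L, 10247502 to 10250501, minus strand) encodes Basket, the JNK itself. It was 1229.7, 1170.3, 1237 and 1214 in control replicates and 1042, 1096, 1061 and 1014 in ecd-RNAi-labelled replicates. The lowest control stood above the highest ecd-RNAi-labelled library. The fall was slight, from 1213 ± 29.8 to 1053 ± 34.1 (1.15-fold lower, log2 fold change -0.20, SE 0.04, limma, BH-adjusted p = 0.00115), and 64.1% of genes tested had a change at least as large. The ratio of hep to bsk was 1.15 to 1.26 in control and 1.27 to 1.33 in ecd-RNAi-labelled libraries, a difference of 0.12 in the mean log2 ratio (exact permutation p = 0.0286, adjusted p = 0.0357). This small difference lost its call when any 1 ecd-RNAi-labelled library was left out (adjusted p = 0.0714).

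The feedback phosphatase puc (FBgn0243512; chromosome 3R, 8105332 to 8122294, plus strand) encodes Puckered and is widely used as a readout of JNK activity in flies. It was 1612, 1767, 1426 and 1425 in control replicates 1 to 4 and 2919, 3046, 3361 and 2684 in the 4 ecd-RNAi-labelled replicates. The lowest ecd-RNAi-labelled library stood well above the highest control. The mean went from 1557 ± 165 to 3003 ± 282, 1.93-fold higher (log2 fold change 0.95, SE 0.08, limma, BH-adjusted p = 4.39e-06). Of all genes tested, 922 had a log2 fold change at least as high.

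The AP-1 factors rose too, with smaller folds than puc, although that difference was not tested. The gene Jra (FBgn0001291; chromosome 2R, 10096480 to 10098556, plus strand) encodes the fly Jun. It was 765, 716, 709.7 and 680.0 in control replicates and 1112, 1142, 1145 and 1133 in ecd-RNAi-labelled replicates. The latter had a coefficient of variation of 1.33%, the smallest of the 10 genes in that group, and lay above all controls. The mean went from 718 ± 35.0 to 1133 ± 15.0, 1.58-fold higher (log2 fold change 0.66, SE 0.04, limma, BH-adjusted p = 6.31e-07). Exons of Jra overlap those of RpLP0-like on the opposite strand, which was 869 ± 61.9 and 897 ± 55.9 and was not called.

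The gene kay (FBgn0001297; chromosome 3R, 29765995 to 29794113, plus strand) encodes the fly Fos, which binds DNA as a dimer with Jun or with itself. Control replicates 1 to 4 held 3406, 3912, 3949.7 and 3434, and ecd-RNAi-labelled replicates 1 to 4 held 5168, 5349, 4698 and 4109. Replicate 4 labelled ecd-RNAi came closest to the controls, and the groups did not overlap. The mean went from 3675 ± 295 to 4831 ± 554, 1.31-fold higher (log2 fold change 0.39, SE 0.08, limma, BH-adjusted p = 0.00235). The ratio of kay to Jra was 4.45 to 5.56 in control and 3.62 to 4.68 in ecd-RNAi-labelled libraries, and these ranges overlapped. The difference of -0.27 in the mean log2 ratio did not pass (exact permutation p = 0.0857, adjusted p = 0.0857), except without control replicate 1, where it was -0.34 (adjusted p = 0.0286). That call turned on 1 library.

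On the chromosome, egr and Jra lie 12.3 kb apart on the same strand, with 2 genes between them. These, sut4 and CG2269, had means under the filter in each group: sut4 was at 1.40 ± 0.449 and 4.14 ± 3.20, and CG2269 at 0.286 ± 0.571 and 5.49 ± 0.980. Neither was tested. No other pair of the 10 genes lies within the same megabase.

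Ets21C had the largest change of the 10. The gene (FBgn0005660; chromosome 2L, 544925 to 552923, minus strand) encodes an ETS transcription factor that acts with AP-1 downstream of JNK in stressed and tumorous discs. It was 22.1, 129, 123 and 21.7 in control replicates 1 to 4 and 1462, 1901, 1950.2 and 1260.2 in the 4 ecd-RNAi-labelled replicates. Controls fell apart into a high pair, replicates 2 and 3, and a low pair, replicates 1 and 4, a 5.95-fold span, while ecd-RNAi-labelled libraries spanned 1.55-fold. The lowest control values correspond to about 19.3 and 21.3 reads, on the approximate worth of 1 read in each library. The mean went from 74.1 ± 60.3 to 1643 ± 337, 22.2-fold higher by the ratio of means (log2 fold change 4.91, SE 0.57, 95% interval 3.63 to 6.18, limma, BH-adjusted p = 3.44e-05). Leaving out 1 library at a time gave ratios of means from 17.9 to 29.5. Only 83 of the 9380 genes tested had a log2 fold change at least as high.

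Exons of Ets21C overlap those of nAChRbeta3 on the opposite strand, which was 36.0 ± 9.44 and 43.3 ± 37.8 and was not called. In the authors' deposited table, from DESeq2, the log2 fold change of Ets21C was 4.47 (SE 0.66, adjusted p = 9.89e-11). That table called the same 8 genes in the same directions, and msn and hep had adjusted p-values of 0.971 and 0.228 in it. The ratio of Ets21C to puc was 0.0143 to 0.0872 in control libraries and 0.470 to 0.624 in ecd-RNAi-labelled libraries, a difference of 3.96 in the mean log2 ratio (exact permutation p = 0.0286, adjusted p = 0.0357). Ets21C therefore rose by more than puc in these libraries.

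**Figure D3:**
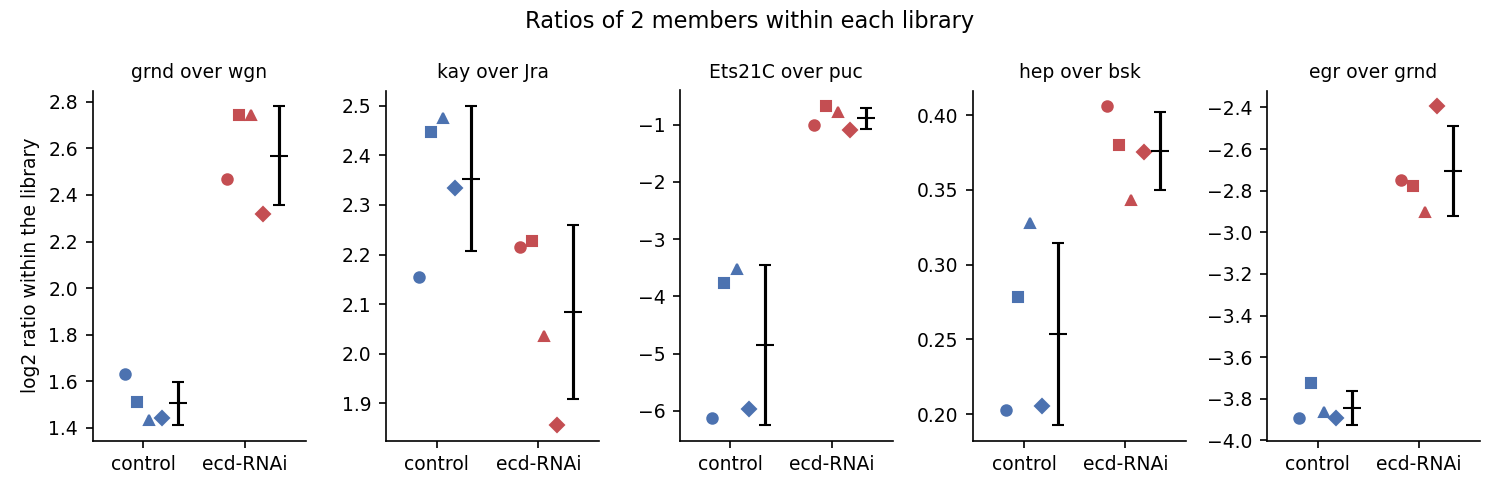
Log2 ratios of normalized counts of 2 genes within each library (vertical axes, a separate scale for each ratio). Blue points are control, red points are ecd-RNAi-labelled libraries, and black bars give the mean and SD of 4 libraries. The groups are apart for 4 of the 5 ratios and overlap for kay over Jra.

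To set the genes against each other, levels were divided by the length of the longest annotated transcript, and the isoforms in use are not known from these values. In control libraries the order from the top was msn (1434 ± 56.2 normalized counts per kb), grnd (1065 ± 21.1), kay (803 ± 64.6), bsk (675 ± 16.6), puc (533 ± 56.6), Jra (458 ± 22.4), wgn (304 ± 17.9), hep (254 ± 12.5), egr (71.6 ± 3.31) and Ets21C (16.6 ± 13.5). Of neighbours in that order, puc and Jra had overlapping ranges. In ecd-RNAi-labelled libraries, msn (1439 ± 177 per kb) and grnd (1307 ± 69.5) overlapped at the top, kay (1056 ± 121) and puc (1029 ± 96.6) overlapped next, and egr (194 ± 21.95) and wgn (179 ± 21.6) overlapped at the bottom. Between them came Jra (724 ± 9.60), bsk (586 ± 19.0), Ets21C (368 ± 75.5) and hep (240 ± 8.31). Ets21C went from the lowest level of the 10 to above hep, and wgn became the lowest in the mean, although not apart from egr.

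The genes with the most similar profiles were found by the root mean square distance over the 8 libraries between log2(normalized count + 1) values centred on the control mean, among 8634 protein-coding genes, and this is a description only. Nearest to Ets21C were the cytokine gene upd2 (distance 0.26), the chorion protein gene Cp15 (0.31) and the cytokine gene upd3 (0.60), against a median distance of 3.59. The counts of Cp15 were low, 1.18 ± 1.37 in control and 64.4 ± 19.4 in ecd-RNAi-labelled libraries. Like Ets21C, upd2 had a low and a high pair of controls, with 11.4, 86.3, 91.6 and 9.02 in replicates 1 to 4. In upd3 the same controls were the higher ones, with 16.6, 44.4, 35.7 and 14.7. The distance includes the controls, so this shared split follows in part from how upd2 and upd3 were picked. This split was noticed after the values were seen. Control replicates 2 and 3 were both above 1 and 4 in 4 of the 10 genes (msn, hep, kay and Ets21C) and in 8 of 15 JNK target genes, upd2, upd3 and Ilp8 among them, against 19.0% of all genes tested. Replicates 2 and 3 labelled ecd-RNAi were likewise both above 1 and 4 in bsk, puc, Jra and Ets21C and in 10 of the 15 targets, against 17.55% of all genes tested. The controls and the ecd-RNAi-labelled libraries thus each held a pair that stood apart in Ets21C and many of these targets, and the source of these splits was not tested. Nearest to egr were Non1 (0.10), trbl (0.10) and MRP (0.10), and nearest to puc were Ist1 (0.07), KP78a (0.08) and CG7988 (0.08).

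**Figure D4:**
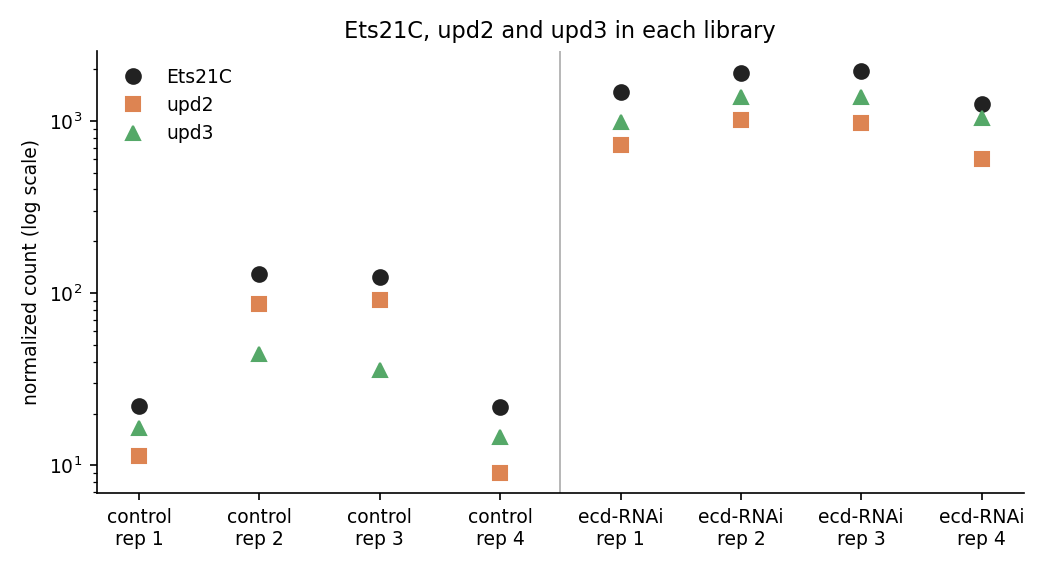
Normalized counts (vertical axis, log scale) of Ets21C, upd2 and upd3 in each of the 8 libraries. Control replicates 2 and 3 lie above replicates 1 and 4 for all 3 genes, and every ecd-RNAi-labelled library lies above every control.

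The rest of the relay between receptor and nucleus went both ways. Of 31 adaptors, GTPases, kinases and inhibitors of the pathway, 30 were tested, 9 were called higher and 7 lower, against 30.8% and 31.7% of all genes tested, with a median log2 fold change of 0.02. Traf4, an adaptor that couples TNF receptors to the kinases, stood out in size: it was 359, 415, 402 and 426 in control replicates and 1605, 1562, 1673 and 1552 in ecd-RNAi-labelled replicates. The groups were far apart, with means of 400 ± 29.2 and 1598 ± 55.1, 3.99-fold higher (log2 fold change 2.00, SE 0.06, limma, BH-adjusted p = 5.05e-09). Also among the higher genes were raw, a negative regulator of the pathway (1.53-fold), and Mkp3 (1.42-fold). Mkp3 is counted in this list but encodes a phosphatase that acts on ERK. Not every negative regulator rose, and the phosphatase gene Mkp, named by role, was not called (1.02-fold). The largest falls were in hiw, the ubiquitin ligase that limits the kinase Wallenda (1.64-fold lower), the scaffold gene Cka (1.32-fold lower) and the GTPase gene Rac1 (1.22-fold lower). Named by role and not by size are the MAP kinase kinase gene Mkk4 and the genes Tak1, slpr, wnd, Ask1 and Mekk1. The latter encode kinases of the tier above MAP kinase kinases. Log2 fold changes of all of these lay between -0.17 and 0.02. Of these, slpr and Tak1 were called lower (limma, BH-adjusted p = 0.00431 and 0.0466), and the others were not called. The split of the whole list depended on scaling, with 14 higher after quantile normalization and 13 lower after recentring on the median.

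Other MAP kinase modules went both ways. Of 12 genes of the ERK and p38 branches, 3 were called higher and 4 lower, with a median log2 fold change of -0.03, and these shares lie near the 30.8% and 31.7% of all genes tested. The stress kinase gene p38a was 1.47-fold higher (210 ± 5.67 to 308 ± 25.4), the ERK gene rl 1.25-fold higher (7714 ± 362 to 9666 ± 152) and Atf-2, a bZIP factor downstream of p38, 1.21-fold higher. The Atf-2 call was lost with quantile normalization and with recentring, and that of Ras85D with quantile normalization. In the lower direction were Ras85D (1.16-fold), the scaffold gene ksr (1.16-fold) and the exchange factor gene Sos (1.12-fold).

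Among relatives of Ets21C, Ets98B was called higher and aop and pnt lower, and 5 of 7 other ETS genes were tested, with Ets65A and Ets96B below the filter. These 3 calls among 5 genes are near the 62.5% called over all genes tested. Ets98B went from 362 ± 21.9 to 641 ± 81.8 (1.77-fold higher, log2 fold change 0.82, SE 0.09, limma, BH-adjusted p = 2.36e-05). The repressor aop, also called yan, went from 3486 ± 174 to 2218 ± 251 (1.57-fold lower), and the activator pnt from 2355 ± 104 to 1979 ± 171 (1.19-fold lower). Both act under ERK signalling, and the pnt call was lost with quantile normalization. Eip74EF and Ets97D were not called.

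The listed relatives of Jra and kay in the bZIP family were mostly higher. This list is a part of the family, with Atf-2 counted among the MAP kinase genes. It was drawn up with earlier results of these data known, so its direction is not independent evidence. Of 14 tested bZIP genes, 9 were called higher and 2 lower, against 30.8% and 31.7% of all genes tested, with a median log2 fold change of 0.73. The C/EBP gene slbo was 8.52-fold higher, from 7.34 ± 4.69 to 62.6 ± 8.30, Irbp18 4.89-fold, from 139.7 ± 18.0 to 683 ± 30.7, and Xrp1 3.09-fold. Atf3, a stress factor that can pair with Jun, went from 391, 432, 452 and 442 in control replicates to 1132, 1061, 1224 and 1242 in ecd-RNAi-labelled replicates (log2 fold change 1.44, limma, BH-adjusted p = 5.07e-08); it was named after its values were seen. In the lower direction were CrebA, a factor of the secretory pathway (2.96-fold lower, from 4268 ± 186 to 1443 ± 156), and Xbp1 (1.20-fold lower).

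Of 15 genes known as JNK targets, 12 were called higher, 2 lower and 1 was not called, against 30.8% higher and 31.7% lower over all genes tested, with a median log2 fold change of 1.17. The list overlaps genes that were already known to have risen in these libraries, so its direction is not independent evidence. By the rule of largest change the named genes are Ilp8, a relaxin-like peptide (180.0-fold higher), upd3 (42.8-fold) and upd2 (16.7-fold), with log2 fold changes of 7.88, 5.50 and 4.68. Leaving out 1 library at a time gave Ilp8 ratios from 141.1 to 301.4, the highest without control replicate 2. Its control values were low and ran from 6.21 to 79.1. Going lower were Mmp2, a matrix metalloproteinase, 1.53-fold, and the cell death gene hid, 1.29-fold. Pvf1 had a log2 fold change of 0.42 and did not pass (limma, BH-adjusted p = 0.127).

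**Figure D5:**
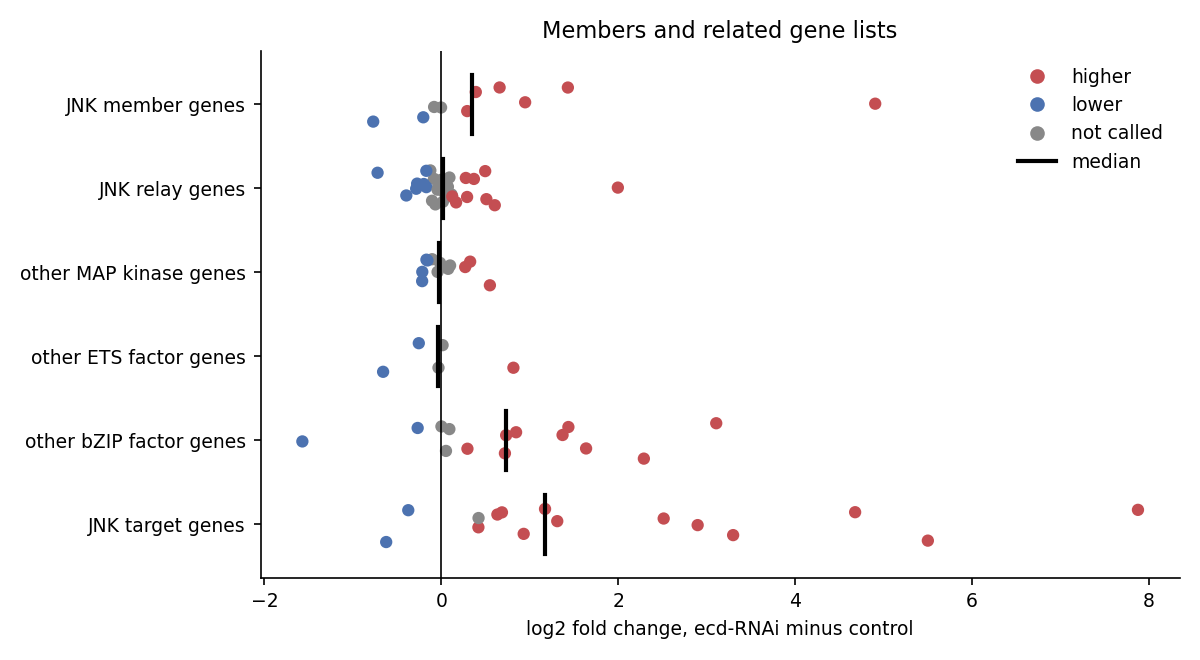
Log2 fold changes (horizontal axis, ecd-RNAi-labelled libraries minus control) of the tested genes of each list, 1 point per gene, with vertical scatter for legibility. Red genes were called higher, blue lower and grey not called, and black bars give the median. Medians of the relay, MAP kinase and ETS lists lie near 0, while those of the bZIP and target lists lie at 0.73 and 1.17.

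Markers of other cells and of the disc epithelium were read against the 30.8% higher and 31.7% lower of all genes tested. Of 12 hemocyte markers, 5 were called higher and 2 lower, in sum near the 62.5% called either way over all genes. Higher were ItgaPS4 (4.49-fold, from 11.0 ± 5.84 to 49.6 ± 18.3), Sr-CI (2.62-fold) and NimC1 (1.67-fold), and lower were Ppn (2.61-fold) and crq (1.15-fold). Their summed level was 22679 to 26539 in control and 11951 to 15426 in ecd-RNAi-labelled libraries, most of it from Ppn, which was 20748 ± 1455 and 7958 ± 1061. The fall of this sum is that of Ppn and does not describe the 5 markers called higher. Hml, given as a defining hemocyte marker and not for its size of change, was 444 to 649.7 in control and 589 to 1396 in ecd-RNAi-labelled libraries. It was called higher (limma, BH-adjusted p = 0.0265), although its groups overlapped, as did those of Sr-CI. Hml, Sr-CI and NimC1 were each highest in ecd-RNAi replicate 1, while ItgaPS4 and vkg, also called higher, were not. Of 7 adult muscle precursor markers 0 were higher and 6 lower (summed level 7292 to 7788 and 4299.6 to 5053), led by zfh1 (3.12-fold lower), kon (1.95-fold) and sns (1392 ± 46.4 to 871 ± 20.5). Of 6 tracheal markers verm was higher (1.13-fold) and 4 were lower (25012 to 28030 and 17196 to 21848), led by pio (2.07-fold), trh (1.90-fold) and tnc (1.38-fold). Fat body markers had 0 higher and 1 lower of 5 tested (summed level 944 to 6792 and 559.5 to 4463), the lower one being Fbp1 (2.35-fold). Of 6 neuronal markers, Syt1 was higher (1.35-fold) and sens (7.10-fold), ase (4.05-fold) and brp (2.31-fold) were lower (summed level 732 to 843 and 613 to 757), in sum also near 62.5%. Of the 8 disc epithelium markers, wg was higher (1.52-fold) and 7 were lower, led by Dll (2.08-fold), rn (2.04-fold) and ap (1.56-fold). The calls of crq, tnc, Fbp1, Syt1 and brp were each lost in several fits without 1 library, and their groups overlapped. With quantile normalization the NimC1 call was lost, and with recentring on the median that of verm. No marker was at 0 in every library. The part of these cells in the changes of the 10 genes was not tested.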

How the data were processed

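The authors deposited normalized counts, a signal per gene that is never negative and not whole, and a table of their comparison with a log2 fold change, a score (the Wald statistic), p-values and adjusted p-values, per the file headers. Per the submitters' processing notes FastQC, cutadapt 3.5, kallisto 0.46.1 and DESeq2 1.34.0 were used on BDGP6; the sources used here give no settings, strand included. The kit was stranded, but genes with an antisense partner are therefore uncertain. The labels disagree on single-end or paired-end reads.

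The 10 genes, the lists and the tests were chosen with earlier results of these data known. Groups came from the sample titles, and the labels speak of 4 biological replicates per group. Symbols matched all 136 list entries. Coordinates are from Ensembl release 115 (BDGP6), 1-based. Of 23932 rows, 6063 had no gene identifier and were left out. Low values lay near steps of 1 read, worth 1.03 to 1.20 normalized counts in control and 0.832 to 0.982 in ecd-RNAi-labelled libraries, but only 77.5% to 86.8% of values up to 20 reads lay within 0.1 of a whole number, so no count model was run. The steps put depth at 29500000 to 37600000 reads, as an approximation.

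limma 3.58.1 in R 4.3.3 (mean trend, two-sided, no covariate) was fitted to log2(normalized count + 1) for rows with a mean of at least 10. It was tested on simulated data. The added 1 shrinks the changes of low genes. Folds are ratios of group means, while log2 fold changes are differences of mean logs. These can differ where libraries vary, and the log2 fold change of Ets21C (4.91) is larger than its 22.2-fold ratio implies. From each list the text names up to 3 called genes of largest change per direction. Ratios of 2 genes were compared by exact permutation in Python 3.11.15. Rows without a gene identifier were added back in 1 alternative chosen after seeing the data; the other alternatives changed the pseudocount, filter, scaling, replicate block and libraries.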

Additional observations from a re-analysis of the deposited data

Results flagged for a closer look

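In 2 of 20 sets of 4 libraries (10 genes in 2 groups), 1 library lay far from the other 3 by Dixon's test at the 95% level, and chance alone gives about 1 in 20. For egr, control replicate 2 held 165.6 against 149.9 to 152 in the other controls. For hep, control replicate 3 held 1552.7 against 1399.9 to 1419 in the other controls.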

How the results depend on the processing

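Under 17 alternative settings, 1 of them (rows without a gene identifier included) chosen after seeing the data, the counts of the 10 genes were 6 or 7 higher and 2 or 3 lower, and the 8 called genes kept their direction and their call in each. Not called and near 0, msn changed sign with quantile normalization (0.164, then called), with equal protein-coding sums (0.030) and in fits without 1 library (lowest -0.072, highest 0.071; 0.019 and 0.003 without control replicate 2 or 3, 0.009 and 0.071 without ecd-RNAi replicate 3 or 4). The extra lower call was hep after recentring. In the relay list 14 were higher with quantile normalization and 13 lower after recentring, and 1 other ETS gene (aop) was lower with quantile normalization; the cause was not tested. Same-numbered libraries did not deviate together over all genes tested (correlations of deviations from -0.0522 to 0.0531). Such values cannot exclude that the numbers pair the samples. In Ets21C, replicates 2 and 3 were above 1 and 4 in both groups. With the replicate block the counts of the 10 genes did not change, and the ratio differences of 1.063 (grnd over wgn), 3.957 (Ets21C over puc), 0.123 (hep over bsk) and 1.137 (egr over grnd) could not pass, since 4 pairs allow no smaller exact permutation p than 0.125 (adjusted p = 0.156). Without 1 library, kay over Jra ranged from -0.335 to -0.194 and hep over bsk from 0.106 to 0.147. The lowest Ets21C values rest on about 20 reads, which limits the precision of its fold.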
